A study of Mus musculus with 9 samples.

Results

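Epithelial-mesenchymal transition (EMT) is the program by which epithelial cells lose their junctions and polarity and take on a motile, mesenchymal state. It is driven by a small set of DNA-binding factors. The zinc-finger repressors SNAI1 (Snail) and SNAI2 (Slug) and the zinc-finger homeodomain repressors ZEB1 and ZEB2 bind E-boxes in the promoters of epithelial genes such as Cdh1, the gene of E-cadherin. TWIST1 and TWIST2 are basic helix-loop-helix factors that pair with the E proteins encoded by Tcf3 (the E2A gene) and Tcf4. The forkhead factor FOXC2 and the paired-related homeobox factor PRRX1 act alongside them. Tcf3 and Tcf4 here are the E-protein genes, and not the Wnt-pathway genes Tcf7l1 and Tcf7l2, for which the same names are in use.

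Described here is the open chromatin at these 10 genes, Snai1, Snai2, Twist1, Twist2, Zeb1, Zeb2, Foxc2, Prrx1, Tcf3 and Tcf4. A peak was given to a gene when its centre lay inside the gene, or otherwise when that gene's end was the nearest protein-coding gene end within 50 kb. By this rule 69 of the 75936 peaks belonged to the 10 genes, and all 69 passed the filter on low values. Tcf4 had 16 peaks, Zeb1 and Zeb2 had 11 each, Snai1 had 10, and Twist2, Prrx1 and Tcf3 had 6 each. Snai2, Twist1 and Foxc2 had 1 peak each. Of the 69 peaks, 10 were gene-end peaks (centre within 1 kb of an annotated gene end), 32 lay in gene bodies and 27 were intergenic. Nearness is not evidence that a peak acts on the gene.

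The libraries were bulk ATAC-seq, an assay that counts where a transposase could cut accessible DNA, from D2A1-d cells, a line of murine breast carcinoma. Cells had been transduced with shMed1 #2 (n = 3) or shMed1 #4 (n = 3), each a short hairpin RNA against the Mediator subunit Med1 and labelled Med1 Knockdown, or with a non-targeting control (NTC, n = 3), labelled WT. All 3 groups are of the same line, carry a transduced construct and are labelled Untreated. The hairpins lower a gene's transcript and leave the gene in place. The series belongs to work on Mediator and metastatic dormancy, and the comparison asks how open chromatin differs where Med1 is targeted.

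Reads in peaks, as estimated from the normalized values, ran from 34.8 to 53.7 M per library, of which 55533 to 87014 lay in the 69 peaks. Values are the authors' normalized counts, that is, reads per peak divided by a size factor of each library. They summed to 43.1 to 44.2 M in the 6 hairpin libraries, against 41.2 to 41.5 M in the 3 NTC libraries, so the balance of higher and lower calls depends on whether totals are made equal. The Med1 gene-end peak was at 2023 ± 143 normalized counts in shMed1 #2, 1971 ± 73.1 in shMed1 #4 and 2114 ± 41.3 in NTC (SD, n = 3), and accessibility does not check depletion of a transcript. Of 6 epithelial markers only Krt18 had a gene-end peak, at 209 normalized counts in NTC, while the gene ends of Krt8, Krt19, Epcam, Cdh1 and Cldn7 had none. Counting peaks of any place, all 6 had a peak, as did all 5 mesenchymal markers. Mesenchymal markers had gene-end peaks at 4 of 5 genes, with Vim at 4576, Fn1 at 3358, Col1a1 at 1346 and Acta2 at 151 in NTC, and Cdh2 lacked one. The line is labelled a carcinoma, and more markers of the mesenchymal list than of the epithelial list had a gene-end peak. Gene-end signal summed over the epithelial list was 154 to 189.7 in shMed1 #2, 209 to 254 in shMed1 #4 and 235 to 306 in NTC. The sum over the mesenchymal list was 13922 to 14005 in shMed1 #2, 14550.1 to 15259 in shMed1 #4 and 14215 to 14441 in NTC. The blood list had gene-end peaks at 3 of 6 genes, the strongest at Spi1 (797 in NTC). They summed to 864 to 956 in shMed1 #2, 853 to 972 in shMed1 #4 and 974 to 1047 in NTC. Of 4 endothelial markers 1 had a gene-end peak, and of 2 fat markers 0 had one. The part of other cell types in the results was not tested.

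The starts of these genes differed in how open they were, and the sequences just upstream of 4 RefSeq starts (GRCm38.p6) are given for that reason, 2 that lay under a peak and 2 that did not. Each is 250 bases long and written 5′ to 3′ on the strand of the gene. Of the 10 genes, 6 had a start in the RefSeq promoter table used. Capitals mark CACCTG, the reverse complement of CAGGTG, the E-box that SNAI and ZEB factors bind.
Snai1 (chr2:167537945-167538194, plus strand, wholly inside a peak): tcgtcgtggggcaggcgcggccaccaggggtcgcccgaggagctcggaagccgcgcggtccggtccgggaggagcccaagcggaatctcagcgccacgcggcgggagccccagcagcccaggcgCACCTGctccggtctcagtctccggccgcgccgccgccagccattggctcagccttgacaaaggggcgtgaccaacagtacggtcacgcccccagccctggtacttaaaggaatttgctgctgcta
Twist1 (chr12:33957421-33957670, plus strand, wholly inside a peak): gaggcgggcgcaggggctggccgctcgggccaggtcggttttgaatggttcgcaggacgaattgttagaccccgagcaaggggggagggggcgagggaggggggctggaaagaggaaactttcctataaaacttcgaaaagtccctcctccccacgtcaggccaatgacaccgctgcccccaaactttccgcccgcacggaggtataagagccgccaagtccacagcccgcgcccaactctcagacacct
Twist2 (chr1:91801211-91801460, plus strand, under no peak): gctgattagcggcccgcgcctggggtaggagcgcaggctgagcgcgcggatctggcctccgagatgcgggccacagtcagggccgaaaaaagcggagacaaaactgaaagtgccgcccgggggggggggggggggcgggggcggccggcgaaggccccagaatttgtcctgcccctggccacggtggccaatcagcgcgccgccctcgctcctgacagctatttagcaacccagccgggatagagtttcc
Zeb2 (chr2:45117443-45117692, minus strand, outermost start, under no peak): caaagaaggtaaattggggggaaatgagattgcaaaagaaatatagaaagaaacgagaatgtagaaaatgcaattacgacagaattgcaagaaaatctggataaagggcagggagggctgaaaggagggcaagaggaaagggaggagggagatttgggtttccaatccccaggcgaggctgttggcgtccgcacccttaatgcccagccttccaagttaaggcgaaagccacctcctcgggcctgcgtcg

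CAGGTG was searched on both strands and was found once at Snai1, and it was not found in the other 3 windows. Of 32851 windows of this length in the RefSeq table, 17.2% hold it. CpG dinucleotides numbered 27 at Snai1, 18 at Twist1, 23 at Twist2 and 9 at Zeb2, against a median of 6 over all windows. GC content was 70% at Snai1, 62.4% at Twist1, 68.8% at Twist2 and 49.6% at Zeb2, against a median of 52.4%. The Twist2 window was closer to the Snai1 and Twist1 windows than to the Zeb2 window in CpG and GC content, and it lay under no peak of the table. A match is a run of letters and not a measured binding site.

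With the authors' scaling, most peaks of the EMT factors that changed were higher in hairpin cells, and those that were lower were gene-end peaks (5) or peaks with a mean under 1000 normalized counts (8). In the mean of both hairpins against NTC, 22 of the 69 peaks rose and 13 fell (limma, Benjamini-Hochberg over all 75930 tested peaks, threshold 0.05). Over all tested peaks 22.1% rose and 17.7% fell, to be set beside 31.9% and 18.8% of the 69. With equal totals of all libraries the split was 16 higher and 20 lower, and over all tested peaks 12104 higher and 21010 lower. The balance between rise and fall thus depends on the scaling. The median log2 fold change of the 69 peaks was -0.04, against -0.01 over all peaks. With shMed1 #2, 21 rose and 13 fell (background 23.6% and 19.5%). With equal totals these were 18 and 23, beside 13498 and 22132 of all 75930 peaks. With shMed1 #4, 15 rose and 10 fell (background 17.3% and 12.1%). With equal totals these were 10 and 15, beside 9329 and 14938 of all 75930 peaks. Called with each hairpin were 13 as higher and 7 as lower (background 12.3% and 7.78%). Of the 69, 0 were called in opposite directions by the hairpins (limma, and 1 at an unadjusted p under 0.05). Such opposite calls were rare over all peaks too, at 575 of the 75930 tested. At 17 peaks all 6 hairpin libraries lay above all 3 NTC libraries, and at 7 all lay below (background 15.0% and 12.3%). These are bulk libraries, so a site open in fewer cells and a site less open in each cell cannot be told apart.

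**Figure D1:**
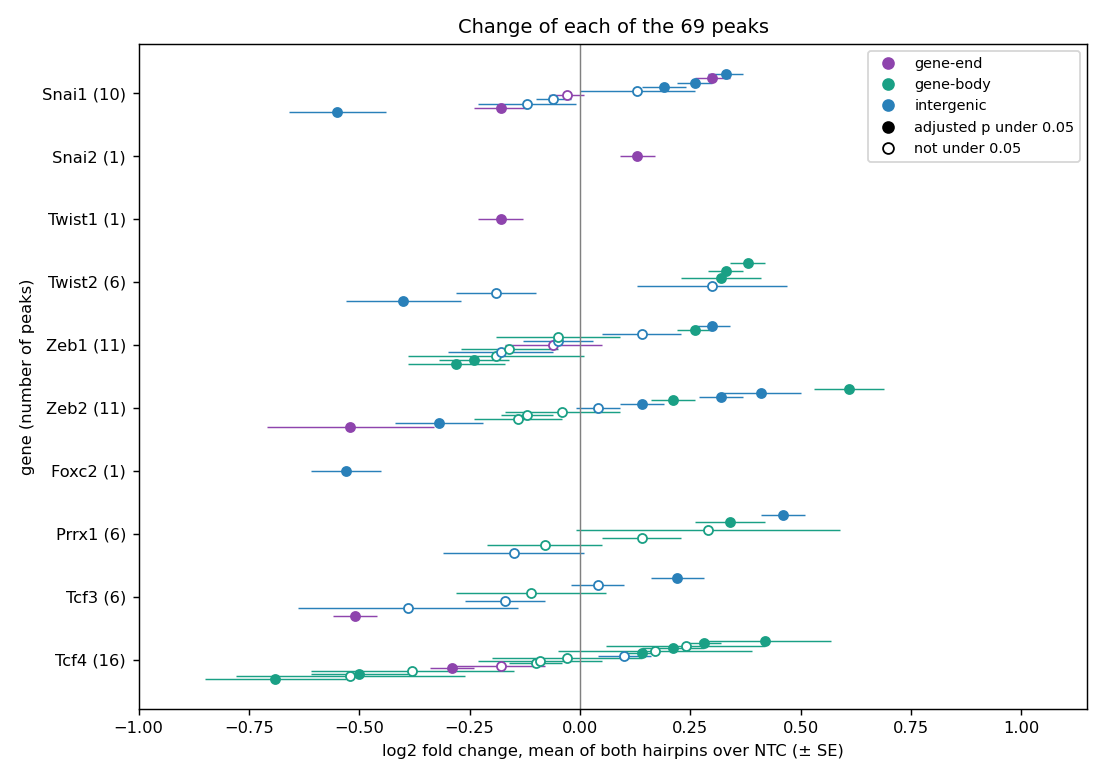
Log2 fold change (mean of both hairpins over NTC) of each of the 69 peaks, by gene, with limma's SE as horizontal bars, colour for place, filled points for an adjusted p under 0.05 and open points for the rest. Of the filled points 22 lie right of zero and 13 left, running from -0.69 at Tcf4 to 0.61 at Zeb2.

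At Snai1, the best known inducer of EMT, the peak over the start did not pass the test, while strong sites downstream were higher in hairpin cells or did not pass. The peak over the Snai1 start (chr2:167537835-167538336) had 3188, 3429 and 3155 normalized counts in shMed1 #2, 3389, 3435 and 3422 in shMed1 #4, and 3499.7, 3330.4 and 3404 in NTC. The groups overlapped, and with both hairpins averaged the log2 fold change was -0.03 ± 0.04 (limma SE, adjusted p = 0.497). It passed as lower with equal totals (-0.11, adjusted p = 0.0101) and with quantile scaling (-0.20, adjusted p = 4.40e-06). A stronger peak beyond the other end of the gene (chr2:167543412-167543913), 848 bp from it, had 4836, 5329 and 5429.7 in shMed1 #2, 5283, 5210 and 4872 in shMed1 #4, and 4429.9, 4007 and 4093 in NTC. All hairpin libraries stood above all NTC libraries there, with a log2 fold change of 0.30 ± 0.04 (adjusted p = 1.55e-09). This was the strongest of the 69 peaks in NTC cells, above 99.6% of all peaks.

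Farther downstream of Snai1, an intergenic peak 27343 bp from the gene (chr2:167569907-167570408) had 4844, 5015 and 5364 in shMed1 #2, 5247, 4816 and 4595 in shMed1 #4, and 4077, 3979 and 3839 in NTC. It rose by 0.33 ± 0.04 (adjusted p = 2.63e-10), again with no overlap of hairpin and NTC libraries. An intergenic peak 10248 bp downstream rose by 0.26 ± 0.04, and 1 at 29179 bp rose by 0.19 ± 0.05. The call on the second was lost with equal totals, and with shMed1 #4 alone it did not pass (0.07 ± 0.06, adjusted p = 0.428). A further strong peak 32187 bp downstream, at 3109.7 ± 48.6 in shMed1 #2, 3065 ± 102 in shMed1 #4 and 3213 ± 71.4 in NTC (SD, n = 3), did not pass (-0.06 ± 0.04, adjusted p = 0.21). Upstream the picture differed. A weak peak 5871 bp before the start (chr2:167532074-167532575) had 191, 165 and 179 in shMed1 #2, 179, 164 and 152 in shMed1 #4, and 228, 242 and 289 in NTC. All hairpin libraries lay below all NTC libraries, and it fell by 0.55 ± 0.11 on the log2 scale (adjusted p = 3.26e-05).

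The gene-end peak 994 bp inside the Snai1 start (chr2:167538939-167539440) separated the hairpins. It had 1071, 1039 and 1129.8 in shMed1 #2, 884, 802 and 816 in shMed1 #4, and 1143, 1016 and 1064 in NTC. The shMed1 #4 libraries lay below all others, while shMed1 #2 and NTC overlapped. The difference of shMed1 #4 minus shMed1 #2 was -0.37 ± 0.06 (adjusted p = 1.64e-05). Averaged over both hairpins it fell by 0.18 ± 0.06 (adjusted p = 0.00937), and without NTC replicate 1 this no longer passed (-0.13, adjusted p = 0.104).

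Snai2, the gene of Slug, had a single peak, 278 bp outside an end of the gene (chr16:14705324-14705825). It had 2606, 2389.8 and 2510 in shMed1 #2, 2642, 2602 and 2579 in shMed1 #4, and 2445, 2263 and 2309 in NTC. The shMed1 #4 libraries lay above NTC and the shMed1 #2 libraries overlapped with it. The rise of 0.13 ± 0.04 (adjusted p = 0.0101) was the smallest among the called members. It did not pass with equal totals (0.05, adjusted p = 0.309), with quantile scaling (0.02, adjusted p = 0.651), without NTC replicate 2 (0.10, adjusted p = 0.103) or without NTC replicate 3 (0.12, adjusted p = 0.055).

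Zeb1 and Zeb2 shared an arrangement of weak gene ends and strong sites far from them. The only gene-end peak of Zeb1 (chr18:5591905-5592406), 828 bp inside an end, had 280.3, 196 and 218 in shMed1 #2, 227, 214 and 248 in shMed1 #4, and 227, 206 and 295 in NTC. These overlapped in full, at -0.06 ± 0.11 (adjusted p = 0.666). The strongest Zeb1 peak was intergenic, 44678 bp from the gene (chr18:5819896-5820397), with 3804, 3999 and 4137 in shMed1 #2, 4105, 3943 and 3974 in shMed1 #4, and 3412, 3197 and 3099.8 in NTC. A gene-body peak (chr18:5740264-5740765) had 2857, 2872 and 3026 in shMed1 #2, 3195, 3197 and 2951 in shMed1 #4, and 2681, 2496 and 2401 in NTC. At both peaks all hairpin libraries exceeded all NTC libraries, with rises of 0.30 ± 0.04 (adjusted p = 1.92e-09) and 0.26 ± 0.04 (adjusted p = 9.59e-07).

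Of the other 9 Zeb1 peaks, 2 fell, both in the first stretch of the gene body. The peak 1891 bp inside the end (chr18:5592968-5593469) had 459, 362 and 372 in shMed1 #2, 419, 493 and 437 in shMed1 #4, and 492, 482 and 518 in NTC. The peak at 3832 bp (chr18:5594909-5595410) had 213, 197 and 160.1 in shMed1 #2, 191, 149 and 188 in shMed1 #4, and 193, 229 and 243 in NTC. Hairpin and NTC libraries overlapped at each. They fell by 0.24 ± 0.08 (adjusted p = 0.0127) and 0.28 ± 0.11 (adjusted p = 0.0398), and neither call held without NTC replicate 3 (adjusted p = 0.0824 and 0.229). The second was also lost without NTC replicate 2, shMed1 #2 replicate 3 or shMed1 #4 replicate 2 (adjusted p = 0.143, 0.115 and 0.112), and with quantile scaling or the replicate block (adjusted p = 0.0579 and 0.0502). The first did not pass with shMed1 #4 alone (adjusted p = 0.224), nor the second with shMed1 #2 alone (adjusted p = 0.154).

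Zeb2 had 5 peaks that rose and 2 that fell. The largest rise among all 69 peaks was in its gene body (chr2:45049263-45049764), with 517, 597 and 611 in shMed1 #2, 385, 388 and 452 in shMed1 #4, and 304, 339 and 306 in NTC. The groups did not overlap, with shMed1 #2 highest and NTC lowest. The mean of both hairpins exceeded NTC by 0.61 ± 0.08 on the log2 scale, a fold of 1.53 (adjusted p = 1.12e-08). An intergenic peak 22152 bp from the gene (chr2:44961110-44961611) had 1335, 1322 and 1252 in shMed1 #2, 1048, 1246 and 1119 in shMed1 #4, and 1009, 924 and 985 in NTC. It rose by 0.32 ± 0.05 (adjusted p = 4.49e-06), also without overlap of hairpin and NTC libraries. The strongest Zeb2 peak in NTC cells (chr2:44956196-44956697) had 1529.5, 1526 and 1485 in shMed1 #2, 1480.1, 1451 and 1479 in shMed1 #4, and 1432, 1356 and 1288 in NTC, and rose by 0.14 ± 0.05 (adjusted p = 0.02). That call did not hold with equal totals, with quantile scaling, or without NTC replicate 2 or 3 (adjusted p = 0.324, 0.175, 0.0725 and 0.182). With shMed1 #4 alone this peak did not pass (0.11 ± 0.06, adjusted p = 0.112).

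Around the outermost Zeb2 start, whose upstream bases lie under no peak, the neighbouring sites were weak. The gene-end peak 600 bp inside it (chr2:45116592-45117093) had 67.6, 46.1 and 36.9 in shMed1 #2, 56.3, 73.8 and 67.9 in shMed1 #4, and 85.9, 85.7 and 72.7 in NTC. It fell by 0.52 ± 0.19 (adjusted p = 0.0261), and 4 of the 9 fits that each leave out 1 library did not call it, those without NTC replicate 1, NTC replicate 2, shMed1 #2 replicate 3 or shMed1 #4 replicate 1 (adjusted p = 0.0955, 0.109, 0.0741 and 0.0532). With quantile scaling its adjusted p was 0.0512, and with shMed1 #4 alone it did not pass (-0.30 ± 0.22, adjusted p = 0.309). An intergenic peak 9112 bp upstream (chr2:45126304-45126805) had 212, 219 and 215 in shMed1 #2, 159.8, 160.2 and 165 in shMed1 #4, and 258, 216 and 226 in NTC. Here shMed1 #4 stood apart from both other groups, and the mean of both hairpins fell by 0.32 ± 0.10 (adjusted p = 0.00992, and 0.104 without NTC replicate 1). An inner RefSeq start of Zeb2 was the open one. Its 250 upstream bases (chr2:45110278-45110527) lay wholly inside a peak (chr2:45110196-45110697) with 1005 ± 74.8 in shMed1 #2, 952 ± 73.3 in shMed1 #4 and 1063 ± 45.1 in NTC (SD, n = 3), at -0.12 ± 0.06 (adjusted p = 0.0876). Those bases hold 2 matches to TGANTCA, the AP-1 element, on either strand, which 6.75% of all windows hold at least once.

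The Twist genes parted. The single peak of Twist1 covered its start (chr12:33957372-33957873) and had 1653, 1591 and 1572 in shMed1 #2, 1712, 1585 and 1678 in shMed1 #4, and 1770, 1861 and 1904 in NTC. Every hairpin library was below every NTC library, a fall of 0.18 ± 0.05 (adjusted p = 0.00157). Twist2 had no peak at its start and had 2 strong peaks in its body, 15337 and 22166 bp from the gene's nearest end. The first (chr1:91816548-91817049) had 4185, 4149.6 and 4452 in shMed1 #2, 4034, 4131 and 3835 in shMed1 #4, and 3398, 3346 and 3138 in NTC. The second (chr1:91823377-91823878) had 4000, 4066 and 4297 in shMed1 #2, 4107, 4244 and 4065 in shMed1 #4, and 3327, 3149.7 and 3039 in NTC. Hairpin and NTC libraries did not overlap at either peak. The rises were 0.33 ± 0.04 (adjusted p = 2.49e-10) and 0.38 ± 0.04 (a fold of 1.30), the second with the smallest adjusted p of the 69 peaks (2.25e-12).

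A weaker Twist2 gene-body peak (chr1:91825497-91825998) rose in the cells of 1 hairpin. It had 424, 442 and 388 in shMed1 #2, 258, 201 and 255 in shMed1 #4, and 219, 252 and 289 in NTC. The shMed1 #2 libraries stood above the rest, and shMed1 #4 overlapped with NTC. The difference of shMed1 #4 minus shMed1 #2 was -0.82 ± 0.11, a fold of 0.568 (adjusted p = 8.8e-08). Its rise in the mean of both hairpins (0.32 ± 0.09, adjusted p = 0.0056) did not pass without NTC replicate 1 (0.22, adjusted p = 0.0971). A weak intergenic peak 46150 bp upstream of Twist2 (chr1:91755061-91755562) had 124, 100.2 and 102 in shMed1 #2, 131, 121 and 149 in shMed1 #4, and 144, 155 and 179 in NTC. It fell by 0.40 ± 0.13 (adjusted p = 0.0097, and 0.108 without NTC replicate 3). With shMed1 #4 alone it did not pass (-0.25 ± 0.15, adjusted p = 0.202).

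Foxc2 and Prrx1, the forkhead and homeobox members, moved in opposite directions. The single Foxc2 peak was intergenic, 2709 bp from the gene (chr8:121113212-121113713), with 449, 364 and 383 in shMed1 #2, 416, 453 and 415 in shMed1 #4, and 552, 610.2 and 621 in NTC. All hairpin libraries were below all NTC libraries. Its fall of 0.53 ± 0.08 on the log2 scale was a fold of 0.694 (adjusted p = 1.4e-07). The Prrx1 start lay under no peak, and its strongest peak was intergenic, 35725 bp from the gene (chr1:163209144-163209645). It had 1608, 1487 and 1478 in shMed1 #2, 1354, 1334 and 1385 in shMed1 #4, and 1064, 1014 and 1049.7 in NTC. The groups did not overlap, with shMed1 #2 highest, and the rise was 0.46 ± 0.05, a fold of 1.38 (adjusted p = 9.04e-11).

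Peaks in the Prrx1 body differed between the hairpins. One (chr1:163273087-163273588) had 443, 451 and 456 in shMed1 #2, 315, 385 and 377 in shMed1 #4, and 304, 317 and 332 in NTC. It rose by 0.34 ± 0.08 in the mean of both hairpins (adjusted p = 6.92e-04), with shMed1 #2 above both other groups. With shMed1 #4 alone it did not pass against NTC (0.17 ± 0.09, adjusted p = 0.162). Its difference between the hairpins did not pass without shMed1 #4 replicate 1 (adjusted p = 0.0822). Another, 1442 bp inside the start (chr1:163311958-163312459), had 80.8, 85.2 and 91.1 in shMed1 #2, 174, 149 and 157 in shMed1 #4, and 126, 124 and 122 in NTC. NTC thus lay between the hairpins without overlap. Against NTC it fell by 0.53 ± 0.15 with shMed1 #2 (adjusted p = 0.00312) and was at 0.36 ± 0.15 with shMed1 #4 (adjusted p = 0.0569), and shMed1 #4 exceeded shMed1 #2 by 0.89 ± 0.15 (adjusted p = 6.85e-06). This was the largest difference between the hairpins among the 69 peaks.

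At the E-protein genes, the gene-end peak of Tcf3 and 1 of 2 gene-end peaks of Tcf4 fell, as did 32.8% of all gene-end peaks. The Tcf3 gene-end peak (chr10:80433845-80434346), 119 bp outside the gene, had 1295, 1186 and 1168 in shMed1 #2, 1222, 1401 and 1286 in shMed1 #4, and 1617, 1892 and 1872 in NTC. The fall of 0.51 ± 0.05 was a fold of 0.703 (adjusted p = 5.17e-11). The next peak outward, 1979 bp from the gene (chr10:80435705-80436206), went the other way, with 1037, 896 and 973 in shMed1 #2, 883, 987 and 881 in shMed1 #4, and 800.4, 858 and 762 in NTC, a rise of 0.22 ± 0.06 (adjusted p = 0.00233). Hairpin and NTC libraries did not overlap at either of these Tcf3 peaks.

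The Tcf4 gene-end peak at its first end (chr18:69344098-69344599) had 1699, 1411 and 1418 in shMed1 #2, 1474, 1595 and 1447 in shMed1 #4, and 1807, 1779 and 1919 in NTC. A weak gene-body peak near it (chr18:69346302-69346803) had 206, 209.6 and 142 in shMed1 #2, 154, 200.2 and 188 in shMed1 #4, and 224, 264 and 289.7 in NTC. Every hairpin library lay below every NTC library at both, with falls of 0.29 ± 0.05 (adjusted p = 1.19e-05) and 0.50 ± 0.11 (adjusted p = 3.82e-04). The peak at the far end of Tcf4 (chr18:69686814-69687315) had 199, 196 and 186 in shMed1 #2, 221, 226 and 214 in shMed1 #4, and 258, 243 and 205 in NTC, and did not pass (-0.18 ± 0.10, adjusted p = 0.142), while with equal totals it passed as lower (-0.26, adjusted p = 0.0311).

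Inside the long Tcf4 gene the strongest sites rose. The strongest (chr18:69547640-69548141) had 3021, 3131 and 3376 in shMed1 #2, 3109, 3093 and 2838 in shMed1 #4, and 2711, 2447 and 2474 in NTC. The next (chr18:69415582-69416083) had 2475, 2558 and 2384 in shMed1 #2, 2288, 2295 and 2404 in shMed1 #4, and 2216, 2212 and 2112 in NTC. All hairpin libraries lay above all NTC libraries, with rises of 0.28 ± 0.04 (adjusted p = 2.3e-07) and 0.14 ± 0.04 (adjusted p = 0.00565). The call on the second did not hold with equal totals, with quantile scaling or without NTC replicate 3 (adjusted p = 0.223, 0.435 and 0.0615). With shMed1 #4 alone the second did not pass (0.10 ± 0.05, adjusted p = 0.124).

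**Figure D2:**
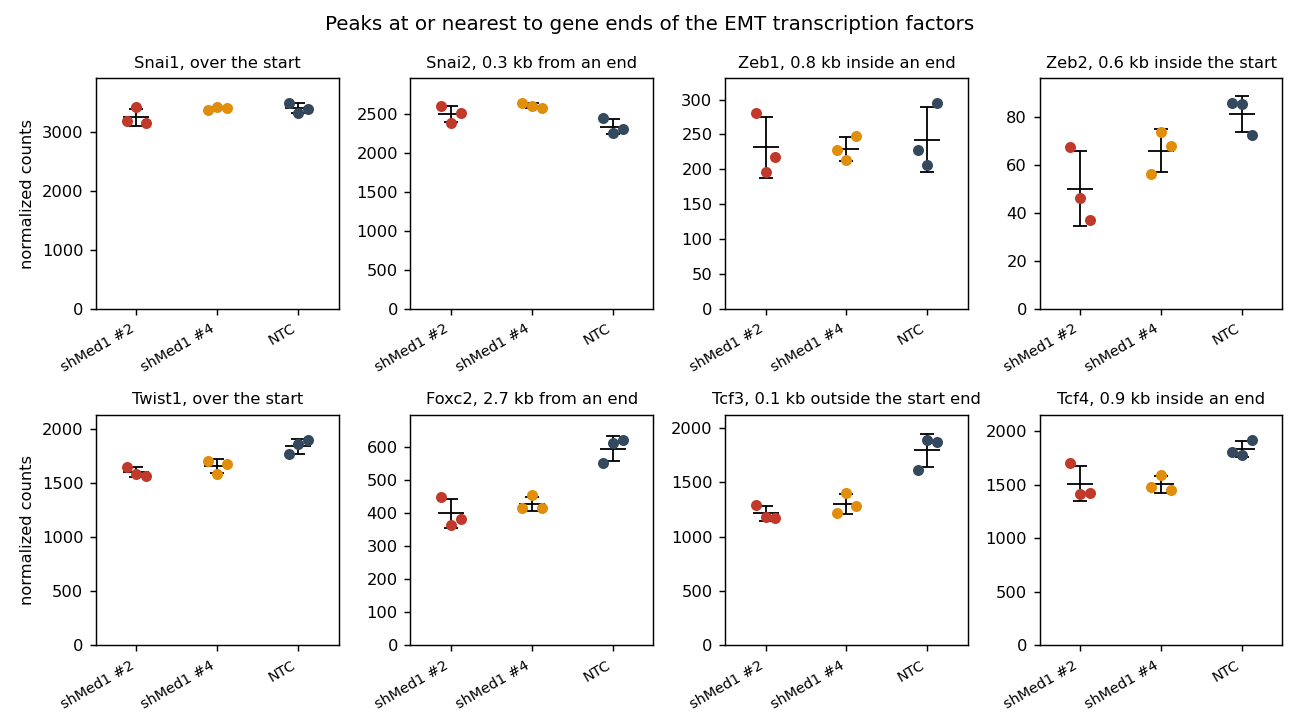
Normalized counts of the gene-end peaks of 7 EMT factor genes, 1 for each, and of the Foxc2 peak, in each library (points), with the mean and SD of each group (n = 3) as lines and every axis from 0. At Twist1, Foxc2, Tcf3 and Tcf4 the 6 hairpin libraries lie below the 3 NTC libraries, while at Snai1, Snai2, Zeb1 and Zeb2 hairpin and NTC libraries overlap.

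**Figure D3:**
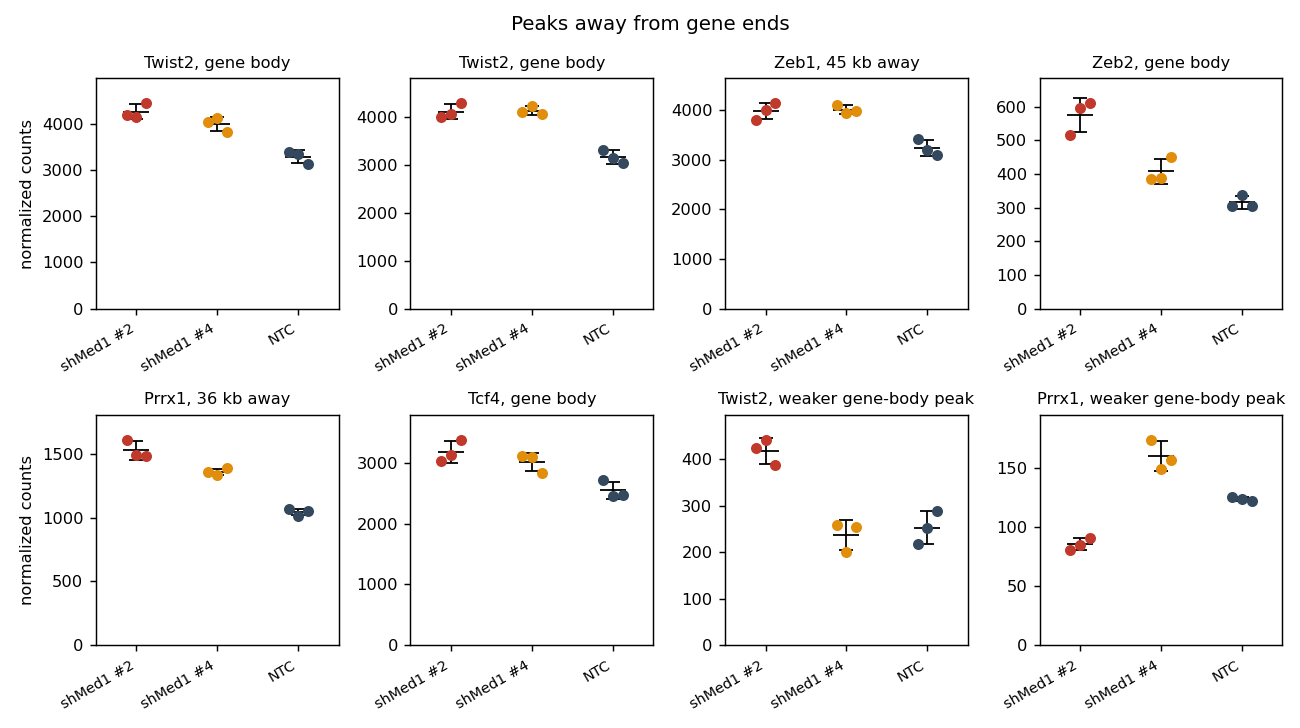
Normalized counts of 8 peaks away from gene ends in each library (points), with the mean and SD of each group (n = 3) as lines and every axis from 0. The first 6 peaks are higher in all hairpin libraries than in NTC, and the last 2, at Twist2 and Prrx1, differ between shMed1 #2 and shMed1 #4.

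By place and strength the counts were as follows. Of the 10 gene-end peaks 2 rose and 5 fell, where 14.3% of all gene-end peaks rose and 32.8% fell. Of the 16 peaks away from gene ends with a mean of at least 1000 normalized counts, 13 rose (81.2%) and 0 fell (limma, and 1 at an unadjusted p under 0.05), with a median log2 fold change of 0.26. Among all such strong peaks of the deposited set, 66.6% rose and 6.89% fell. Strength here is the mean over all 9 libraries, hairpin libraries included. A rise can thus itself bring a peak into this class, among the members and in the background alike. The Zeb2 peak at chr2:44961110-44961611, counted as higher, had a mean of 973 in NTC. The remaining 43 peaks, away from gene ends and under 1000, held 7 that rose and 8 that fell, with backgrounds of 17.6% and 16.0%. Most strong peaks away from gene ends rose in these libraries, most of those of the EMT factors among them, and whether the shares differ was not tested. That class takes in starts inside a gene, such as the peak over the inner Zeb2 start, which did not pass.

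**Figure D4:**
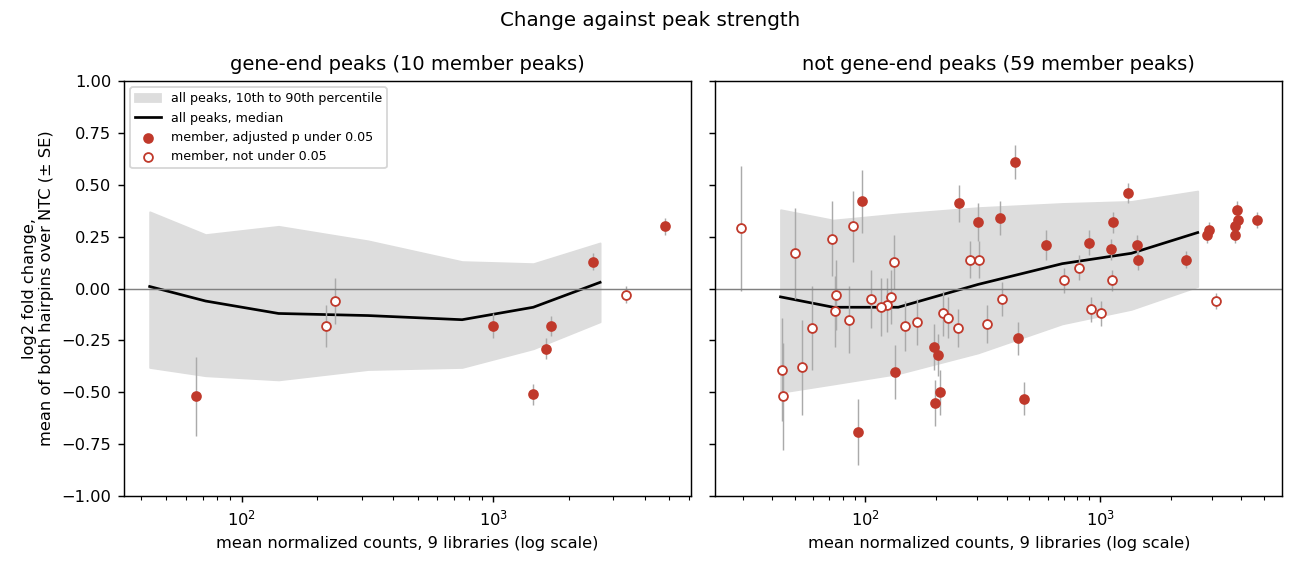
Log2 fold change (mean of both hairpins over NTC) against mean normalized counts over the 9 libraries (log axis), for gene-end peaks (left) and the others (right), with points for the EMT factor peaks and limma's SE as vertical bars. The line is the median and the band the 10th to 90th percentile of all tested peaks of that class by level, and in the right panel the strongest points, beyond the end of the band, lie above zero except 1 at -0.06.

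Summed over all its peaks, the signal of a gene gives 1 value per library over the same length of DNA. The sums rose at 6 genes and fell at 3 in the mean of both hairpins (limma over 15707 genes, where 27.1% rose and 26.6% fell). Prrx1 had 2549, 2447 and 2407 in shMed1 #2, 2263, 2381 and 2339 in shMed1 #4, and 1877, 1875 and 1908 in NTC, a rise of 0.34 ± 0.04 (adjusted p = 2.15e-09). Twist2 had 9061, 9071 and 9584 in shMed1 #2, 8876, 9059 and 8603 in shMed1 #4, and 7435, 7242 and 7000 in NTC, a rise of 0.32 ± 0.03 (adjusted p = 4.08e-11). The direction of both was the same with equal totals and with quantile scaling. With peaks limited to 25 kb from the gene, which leaves out the strongest Prrx1 peak, the rise was 0.18 (adjusted p = 0.0064) at Prrx1 and 0.35 (adjusted p = 2.66e-11) at Twist2. Zeb1 rose by 0.19 ± 0.03, Snai1 by 0.16 ± 0.03 and Zeb2 by 0.13 ± 0.03, all of which depend on the scaling, since with quantile scaling Zeb1 did not pass (0.03, adjusted p = 0.244), Snai1 fell (-0.06, adjusted p = 0.00518) and Zeb2 was at -0.01 (adjusted p = 0.866). By hairpin, the Zeb2 sum rose with shMed1 #2 (0.21 ± 0.03, adjusted p = 7.97e-07). With shMed1 #4 it did not pass (0.06 ± 0.03, adjusted p = 0.104), though it did with quality weights (0.07, adjusted p = 0.0285). The Snai2 sum is its single peak, at 0.13 ± 0.04, and did not pass with equal totals (0.06, adjusted p = 0.177) or without NTC replicate 2 (0.10, adjusted p = 0.0539). Foxc2 fell by 0.53 ± 0.08, Twist1 by 0.18 ± 0.04 and Tcf3 by 0.17 ± 0.04. Tcf4, where gains and losses lay in 1 gene, was at 0.05 ± 0.02 (adjusted p = 0.0649). It was lower with quantile scaling (-0.11, adjusted p = 4.61e-05) and with the nearest gene end (-0.11, adjusted p = 0.00861). The latter leaves out gene-body peaks more than 50 kb from any gene end, the strongest Tcf4 peak among them. The Tcf4 sum passed as higher with quality weights (0.05, adjusted p = 0.0243) and without shMed1 #4 replicate 3 (0.06, adjusted p = 0.0444). With shMed1 #2 alone the Tcf4 sum rose by 0.08 ± 0.03 (adjusted p = 0.0231).

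**Figure D5:**
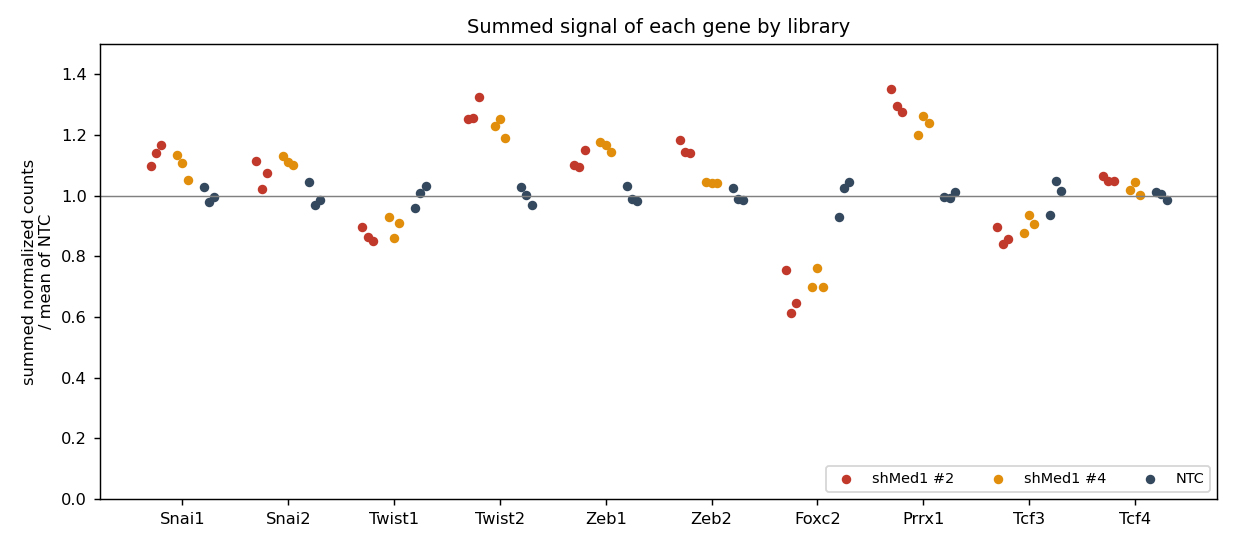
Normalized counts summed over all peaks of each gene, divided by the gene's NTC mean, in each library (1 point per library, 3 per group). Prrx1 and Twist2 stand highest in the hairpin libraries, Foxc2 stands lowest, and all NTC points lie near 1 by construction.

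The hairpins differed from each other at 16 of the 69 peaks, 6 higher in shMed1 #4 and 10 lower (background 8.48% and 13.0%). The count of higher peaks was 3 without shMed1 #2 replicate 2 and 1 without shMed1 #4 replicate 3. Zeb2 held 6 of the 16, with 5 lower in shMed1 #4. It was the only gene of the 10 whose sum differed between the hairpins by the main test. The sums were 7313, 7283 and 7302 in shMed1 #4, 8284, 7999 and 7988 in shMed1 #2, and 7185, 6925 and 6894 in NTC. The difference of shMed1 #4 minus shMed1 #2 was -0.15 ± 0.03 (adjusted p = 4.27e-04, where 11.7% of all genes were higher and 12.9% lower). Quality weights called 5 genes here.

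The limit of 50 kb had peaks close to it on both sides, with a rise and a fall on each. Just inside it lay the Zeb1 peak at 44678 bp, with a mean log2 fold change of 0.30, and the Twist2 peak at 46150 bp, at -0.40. Just outside were Twist2 peaks at 51271 bp (157 in shMed1 #2, 140.0 in shMed1 #4 and 109 in NTC, a log2 fold change of 0.44) and at 58332 bp (115 in shMed1 #2, 138 in shMed1 #4 and 168 in NTC, at -0.41).

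Genes that act with the EMT factors were counted in the same fit, in the mean of both hairpins, for lists chosen with earlier results of these data known. Among inducers and signalling genes, 41 of 131 peaks rose (31.3%) and 20 fell (15.3%), where 22.1% of all tested peaks rose and 17.7% fell. A gene-body peak of Tgfbr2, a TGF-beta receptor, was at 2516 ± 107 in shMed1 #2, 2297 ± 32.2 in shMed1 #4 and 1843 ± 138 in NTC (SD, n = 3), a rise of 0.39 ± 0.04, and the gene end of Ctnnb1, the gene of beta-catenin, fell by 0.46 ± 0.06. Among E-protein partners and ID inhibitors, 6 of 34 rose (17.6%) and 2 fell (5.88%). An intergenic peak of Id1, which encodes an inhibitor that sequesters E proteins, was at 822 ± 29 in shMed1 #2, 616 ± 17.2 in shMed1 #4 and 472 ± 16.6 in NTC (SD, n = 3), a rise of 0.59 ± 0.06. The gene end of Tcf12, the remaining E-protein gene, fell by 0.46 ± 0.08, as 32.8% of all gene-end peaks fell. Corepressors and coactivators had 16 of 75 higher (21.3%) and 13 lower (17.3%), with rises of 1.08 ± 0.13 in the body of Rcor1 and 0.36 ± 0.06 in that of Kdm1a, partners in a histone demethylase complex that SNAI1 recruits. In the same list, peaks of Ajuba, a LIM protein that binds SNAI1, fell by 0.46 ± 0.06 in the gene body and 0.35 ± 0.05 at the gene end. Stability regulators had 6 of 50 higher and 6 lower (12% each). The gene end of Gsk3b, a kinase that marks SNAI1 for degradation, rose by 0.21 ± 0.03, while those of the kinase gene Pak1 and the ubiquitin-ligase gene Fbxw7 fell by 0.23 ± 0.06 and 0.15 ± 0.04.

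Target genes of the EMT factors had peaks that rose and peaks that fell. Peaks of epithelial targets rose at 28 of 103 (27.2%) and fell at 21 (20.4%), with a median log2 fold change of 0.03, against a background of 22.1% and 17.7%. A gene-body peak of Tjp1, a tight-junction scaffold, rose by 0.46 ± 0.05, and an intergenic peak nearest to Krt8, a luminal keratin, fell by 0.50 ± 0.07. Peaks of mesenchymal targets rose at 11 of 117 (9.4%) and fell at 35 (29.9%), with a median of -0.13 against -0.01 over all peaks. Whether these shares differ from the background was not tested. Members of that list moved both ways. A gene-body peak of Col1a1 fell by 0.68 ± 0.10, and a gene-body peak of Sparc, a matrix glycoprotein, rose by 0.53 ± 0.04. Other factors linked to EMT had 40 of 125 higher (32%) and 23 lower (18.4%). A gene-body peak of Runx2 was at 8113 ± 541 in shMed1 #2, 7898 ± 54.7 in shMed1 #4 and 5504 ± 448 in NTC (SD, n = 3), a rise of 0.54 ± 0.03. The gene end of Foxc1, a close relative of Foxc2, was at 185 ± 8.1 in shMed1 #2, 225 ± 8.57 in shMed1 #4 and 345 ± 27.6 in NTC (SD, n = 3), a fall of 0.75 ± 0.09.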

How the data were processed

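Bulk ATAC-seq was made from D2A1-d cells transduced with shMed1 #2, shMed1 #4 or NTC (3 libraries each). Nextera transposase acted on washed cells (1 h, 37 °C), per the labels' protocols. Trim Galore, BWA, MACS2 and featureCounts of Subread are named, with the builds mm10 and GRCm38, per the submitters' processing notes. Not given in the sources used here are versions, duplicate removal, peak merging and any shift for the transposase. In the deposited file, the signal is the authors' normalized counts per peak (501 bases), common to all libraries. Values are whole multiples of 1 step per library (100% within 0.01), which gave the size factors (0.799 to 1.22) and reads. A count model was not used, since the file check did not accept these as recovered reads.

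Peaks averaging 10 or more (75930, with 6 removed) were tested on log2(value + 1) with limma 3.58.1 (trend, R 4.3.3), 3 group means, two-sided, with Benjamini-Hochberg adjustment over all peaks and a threshold of 0.05. A ± after a log2 fold change is limma's SE, and fold changes include the pseudocount of 1. The fit was tested on simulated data. Gene sums were tested likewise over 15707 genes with a mean sum of at least 10. Tables were made with Python 3.11.15 and pandas 2.3.3. Genes and starts come from RefSeq (GRCm38.p6), whose promoter table holds starts for 6 of the 10 genes. All 10 symbols matched. Coordinates of peaks are printed as deposited, and whether they count from 0 or 1 is not stated. Peak sequences were not used here. Values in every library are given for gene-end peaks, for each gene's 2 higher and 2 lower called peaks with the smallest adjusted p, for its strongest peak in NTC, and for the 3 peaks with the smallest adjusted p between the hairpins. Other EMT lists gave at most 2 peaks each way, of which some are printed, and the inner Zeb2 start and the other downstream Snai1 peaks were added after their values were seen. Correlations between the genes over libraries are not given, since the libraries fall into groups. The members and lists were chosen with earlier results of these data known. The labels call the libraries biological replicates without describing the cultures, so p-values reflect no more than the spread among these 9 libraries. Both hairpin comparisons share the NTC libraries. Alternatives were other pseudocounts (0.5 and 5), filters (none, and a mean of at least 50), scalings (equal totals, quantile), quality weights, the replicate number as a block, each library left out, fits of only the groups compared, assignment within 25 kb, and assignment to the nearest gene end. The last took no account of gene bodies and kept the limit of 50 kb.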

Additional observations from a re-analysis of the deposited data

Results flagged for a closer look

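Each of 16 peaks differed between the hairpins by a test of the difference itself (limma, adjusted p under the threshold of 0.05 over all peaks), and values here are log2 differences of shMed1 #4 minus shMed1 #2. At Snai1 the peaks at chr2:167538939-167539440 and chr2:167571743-167572244 differed by -0.37 and -0.25. The Twist2 gene-body peak at chr1:91825497-91825998 differed by -0.82. At Zeb1 the peaks starting at 5748578, 5802749 and 5809328 on chromosome 18 differed by 0.61, 0.29 and 0.49. At Zeb2 the peaks starting at 44961110, 44969160, 44977507, 45049263 and 45126304 on chromosome 2 differed by -0.20, -0.25, -0.39, -0.49 and -0.41, and that starting at 45067052 differed by 0.46. At Prrx1 the peaks starting at 163209144, 163273087 and 163311958 on chromosome 1 differed by -0.17, -0.33 and 0.89. The Tcf3 peak starting at 80461313 on chromosome 10 differed by 0.24. Of the 16, 8 passed in each of the 9 fits that leave out 1 library, 1 higher in shMed1 #4 (Prrx1, start 163311958) and 7 lower, and the other 8 did not pass in 1 or more of them. Without shMed1 #4 replicate 3 the 3 Zeb1 peaks, the Zeb2 peaks starting at 44961110 and 45067052 and the Tcf3 peak did not pass, with adjusted p of 0.137, 0.066, 0.0761, 0.0604, 0.262 and 0.0774 in that order. Without shMed1 #4 replicate 1 the Zeb1 peak starting at 5748578, the Zeb2 peak starting at 44961110 and the Prrx1 peaks starting at 163209144 and 163273087 did not pass (0.138, 0.149, 0.0659 and 0.0822), and without shMed1 #4 replicate 2 the Zeb1 peak starting at 5802749 and the Prrx1 peak starting at 163209144 (0.124 and 0.11). Without shMed1 #2 replicate 2 the Zeb1 peaks starting at 5748578 and 5802749, the Zeb2 peak starting at 44961110 and the Tcf3 peak did not pass (0.289, 0.13, 0.0707 and 0.0691), and without shMed1 #2 replicate 1 the Zeb1 peak starting at 5809328, the Zeb2 peak starting at 45067052 and the Prrx1 peak starting at 163209144 (0.104, 0.105 and 0.131). The Zeb1 peak starting at 5748578 also did not pass without any 1 of the NTC replicates (0.052 to 0.0586). In all, 21.5% of tested peaks differed between the hairpins, against 23.2% of the 69. How much Med1 each hairpin removed was not analysed here, and the part of that in these differences was not tested.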

How the results depend on the processing

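Of the 35 peaks called in the mean of both hairpins, 24 stayed called in each of the 9 fits that leave out 1 library (17 higher and 7 lower), and 22 under all alternatives (15 and 7). No called peak turned its direction under the alternatives run. With equal totals 20 peaks in place of 13 fell in the mean of both hairpins and 23 in place of 13 with shMed1 #2, and with shMed1 #4 10 rose and 15 fell. Over all peaks, equal totals put the share of higher calls at 36.6%, against 55.5%, with 12104 higher and 21010 lower, and the median of all peaks at -0.09. Within 25 kb, 3 in place of 6 peaks were higher in shMed1 #4 than in shMed1 #2. The number of gene sums that differed between the hairpins was 2 with quantile scaling and 5 with quality weights, in place of 1. Gene sums turned round with quantile scaling at Snai1 (-0.05 with shMed1 #2, -0.07 with shMed1 #4 and -0.06 in the mean of both), Zeb1 (-0.02 with shMed1 #2), Zeb2 (-0.01 in the mean of both) and Tcf4 (-0.10, -0.12 and -0.11), with equal totals at Tcf4 (-0.00 with shMed1 #2), and with the nearest gene end at Tcf4 (-0.10, -0.12 and -0.11). Assignment to the nearest gene end leaves out gene-body peaks more than 50 kb from any gene end. At Tcf4 these held the called peaks at 72403, 126190 and 140077 bp, which rose, and that at 164537 bp, which fell. The cause of the turns was not tested. Leaving out 1 library gave 8 to 10 gene sums called in the mean of both hairpins, 8 to 10 with shMed1 #2, 7 to 8 with shMed1 #4, and 1 to 1 between the hairpins. Peaks called were then 18 to 22 higher and 10 to 15 lower in the mean of both, 19 to 22 and 12 to 13 with shMed1 #2, 13 to 16 and 7 to 12 with shMed1 #4, and 1 to 7 and 7 to 10 between the hairpins.

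Libraries with the same replicate number were not seen to be more alike than others. Their deviations from the group means correlated at -0.0843 to 0.0335 (9 pairs), and those of the 18 other pairs at -0.0364 to 0.0764. Deviations within a group cancel out, so these correlations are not independent, and they cannot exclude shared cultures or batches. With the replicate block 22 peaks rose and 12 fell in the mean of both hairpins, 21 and 13 with shMed1 #2, 14 and 9 with shMed1 #4, and 6 and 10 between the hairpins, and the gene sums called numbered 9, 9, 8 and 1.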
